A study of Rattus norvegicus with 15 samples.

Results

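The genes described here encode NF-kB subunits and the feedback inhibitors that hold NF-kB in check, measured in cultured rat cells given doxorubicin with or without a protective candidate. The set was defined by symbol as Nfkb1, Nfkb2, Rela, Relb, Nfkbia, Nfkbib, Nfkbie, Nfkbiz, Tnfaip3 and Bcl3. All 10 symbols were found among the 19328 entries of the expression table that remained after exact duplicates were removed. Of these 10 genes, 9 reached an FPKM of 1 (the number of sequenced fragments scaled to transcript length and library size) in at least 3 of 15 libraries and were tested together with the rest of the 11288 entries that did so. Bcl3 stayed below that level in every library.

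RNA was sequenced from H9c2, a myoblast line from embryonic rat heart that is a single cell line, in 5 groups of 3 libraries. Control cells (con) were given phosphate-buffered saline. Cells of the DOX group were exposed for 24 h to 2 µM doxorubicin, which belongs to the anthracyclines and breaks DNA by trapping topoisomerase. The remaining groups had an addition for 4 h before the same doxorubicin exposure. It was 50 µL of danshen injection at a dilution of 1 in 20 in the DSI+DOX group, 5 µM astaxanthin in the AXT+DOX group and 10 µM diosmetin in the DMT+DOX group. Danshen injection is an extract of Salvia root, astaxanthin a carotenoid and diosmetin a plant flavone. Each addition was given at 1 dose, the doses were not matched, and no group received an addition without doxorubicin. All groups were cultured in high-glucose medium with fetal bovine serum. The series asks whether these additions act against the cardiac toxicity of anthracyclines.

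NF-kB is a family of dimeric transcription factors. In resting cells the dimers are held in the cytoplasm by IkB proteins, encoded by Nfkbia, Nfkbib and Nfkbie. The IKK kinase complex marks IkB proteins for destruction in the classical pathway, which frees dimers that contain RelA. In the non-canonical pathway the kinase NIK drives the processing of the Nfkb2 precursor, whose product pairs with RelB. Several of these genes are themselves NF-kB targets, so that active NF-kB raises its own inhibitors. DNA breaks can activate the pathway through the kinase ATM, and in heart muscle cells NF-kB is known for driving cytokine and chemokine genes. The values below are levels of messenger RNA and do not show protein, processing or nuclear NF-kB.

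The promoter of a gene under NF-kB feedback can carry the kappaB consensus motif, so the windows from 250 bases before to 50 bases after the annotated start were searched for it on both strands, overlapping matches included. The sequences come from RefSeq on build GRCr8, which is not the build of the expression table (Rnor_6.0). Windows were found for 9 of the 10 genes. Relb was the gene without one. A match of 10 bases was present in 7 of these 9 windows, and in 4.18% of all 33469 windows of the same length. Rela and Nfkbib had no match, which says only that these letters do not stand in their windows. The stretches that hold the matches are printed because they are what 7 of the members share in sequence. They are written 5′ to 3′ along the gene, with the match in capitals.
Nfkb1, chr2:226805443-226805499, minus strand: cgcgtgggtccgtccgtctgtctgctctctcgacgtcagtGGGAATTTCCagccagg
Nfkb2, chr1:255108314-255108373, plus strand: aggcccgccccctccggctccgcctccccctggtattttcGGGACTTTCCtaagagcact
Nfkbia, chr6:78597073-78597143, minus strand: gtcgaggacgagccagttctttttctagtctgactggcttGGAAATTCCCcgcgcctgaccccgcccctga
Nfkbie, chr9:22947987-22948076, minus strand: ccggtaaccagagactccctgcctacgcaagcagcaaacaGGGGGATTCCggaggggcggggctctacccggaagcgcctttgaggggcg
Nfkbiz, chr11:58251668-58251720, plus strand: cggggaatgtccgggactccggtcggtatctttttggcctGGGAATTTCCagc
Tnfaip3, chr1:15543985-15544189, minus strand: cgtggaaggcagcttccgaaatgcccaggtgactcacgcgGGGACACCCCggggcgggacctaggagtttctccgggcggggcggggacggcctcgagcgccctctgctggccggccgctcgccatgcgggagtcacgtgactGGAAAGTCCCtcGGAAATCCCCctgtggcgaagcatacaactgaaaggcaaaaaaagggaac
Bcl3, chr1:88613556-88613633, minus strand: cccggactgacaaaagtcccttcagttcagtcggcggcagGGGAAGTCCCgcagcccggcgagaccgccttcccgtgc
Tnfaip3 was the member with the most matches, 3 in its window. A match is a description of the sequence and was not tested as a binding site.

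Library facts bear most on the group given danshen injection, but not on it alone. FPKM values added up to 548227 in DSI+DOX replicate 3, against 433383 to 468608 in the other 14 libraries. Across genes, which are not independent replicates, log2(FPKM + 1) correlated at 0.991 or more within the other groups and at 0.995 between DSI+DOX replicates 1 and 2. Replicate 3 correlated at 0.953 and 0.963 with those replicates, so values without it are given beside the DSI+DOX results. Its deviation from the group mean also correlated with those of AXT+DOX replicate 1 (0.56), DMT+DOX replicate 3 (0.52), DOX replicate 1 (0.47) and con replicate 2 (0.37). Its correlations with the remaining libraries of these groups were negative. Each of the named libraries had the highest FPKM sum of its group, and the cause was not tested. The labels call the cells cardiomyocytes, but the cardiac myosin genes Myh6 and Myh7 did not exceed 0.127 and 0.113 FPKM in any library, while 9 of 11 muscle lineage markers reached 1 FPKM. The summed level of these markers was 363 to 390.1 FPKM in con, 122.3 to 137.7 in DOX, 166.1 to 273 in DSI+DOX, 99.4 to 110.3 in AXT+DOX and 177.2 to 192.7 in DMT+DOX. The summed level was thus highest in con and lowest in DOX and AXT+DOX, but not every marker followed it. Of 8 tested markers, 4 were called lower in DOX than in con and 1, Nkx2-5, higher. Against con, 5 were lower and Gata4 was higher in AXT+DOX. In DMT+DOX 4 were lower than in con and Myod1 was higher, and in DSI+DOX 3 were lower and 0 higher. Over all tested entries, 14.1% were called lower than con and 24.8% higher in DOX, and 12.8% and 22.7% in AXT+DOX. These shares were 10.7% and 15.5% in DMT+DOX, and 21.3% and 20.5% in DSI+DOX. The part of the muscle markers in the results below was not tested. Of 5 fibroblast markers 4 reached 1 FPKM and Pdgfra did not. Their sums were 5679 to 5938 FPKM in con, 3653 to 3996 in DOX, 4009 to 4080 in DSI+DOX, 3635 to 3946 in AXT+DOX and 4535 to 4601 in DMT+DOX. Not every marker followed the sum here either. Of the 4 tested, the collagen genes Col1a1 and Col1a2 were called lower than con in every group given doxorubicin. Vim and Thy1 were called in none of them, and averaged 1279 and 147.4 FPKM in con against 1328 and 164.7 in DOX. The part of the fibroblast markers was not tested either. Of 7 leukocyte markers found, Cd3e alone reached 1 FPKM, and Ptprc, the pan-leukocyte marker, did not exceed 0.0905. Their sums were 1.36 to 1.78 FPKM in con, 1.60 to 2.50 in DOX, 1.65 to 1.94 in DSI+DOX, 1.22 to 2.29 in AXT+DOX and 1.97 to 2.34 in DMT+DOX. Of 4 endothelial markers in the table none reached 1 FPKM, and their sum did not exceed 0.26 in any library. In bulk RNA, fewer cells of a type and less RNA per cell cannot be told apart.

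Doxorubicin raised most of the NF-kB genes. Of the 9 genes tested, 8 were higher in DOX than in con and 0 lower, at a Benjamini-Hochberg adjusted p under 0.05 over all tested entries (limma, two-sided). The background was 24.8% of all tested entries called higher in this comparison. The median log2 difference of the 9 genes was 0.81, against 0.05 over all entries tested. Log2 differences are throughout those of log2(FPKM + 1), while fold changes and relative levels are ratios of group mean FPKM. For genes at low levels, such as Tnfaip3, the log2 difference is therefore smaller than the fold change implies. The 3 libraries of DOX did not overlap those of con for any of the 9 genes, which was also so for 62.5% of all tested entries. Relb and Tnfaip3 changed about 4-fold, while Rela moved by 1.23-fold and Nfkb1 had a lower level in DOX.

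Among the subunits, Relb, which encodes the subunit that pairs with the processed Nfkb2 product, had the largest response. Relb was at 3.76, 3.71 and 4.31 FPKM in the con libraries and at 17.7, 16.3 and 17.3 in the DOX libraries. Every DOX library lay far above every con library, a rise of 4.36-fold (log2 difference 1.88 ± 0.10 (SE), adjusted p = 8.12e-09 in limma). Nfkb2, the gene of the precursor that non-canonical signalling processes, was at 24.7, 26.7 and 24.6 FPKM in con and at 42.5, 44.5 and 48.0 in DOX. It rose by 0.81 ± 0.07 on the log2(FPKM + 1) scale (limma adjusted p = 1.15e-06), and its groups were well separated.

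The genes of the classical subunits moved less. Rela, the gene of the main activating subunit and the highest of the 10 in FPKM, was at 41.1, 43.5 and 39.3 FPKM in con and at 48.0, 50.8 and 53.5 in DOX. The gap between the groups was narrower than the range of the DOX libraries, and the rise was 0.29 ± 0.07 (limma adjusted p = 0.00305). Nfkb1, the gene of the p50 precursor, was at 18.8, 17.5 and 18.1 FPKM in con and at 14.2, 15.3 and 15.4 in DOX. Its DOX libraries were all below its con libraries, but the difference of -0.26 ± 0.11 did not pass the threshold (limma adjusted p = 0.0854). Both calls depended on the setting. Rela missed the threshold after the libraries were scaled to a common median (adjusted p = 0.0634), and Nfkb1 passed it under 6 of 24 alternatives. It passed with only con and DOX in the fit, with median scaling, quantile normalization and array weights (limma adjusted p = 0.00583, 0.00468, 0.0102 and 0.000289). It also passed without DSI+DOX replicate 1 or 3 (limma adjusted p = 0.0497 and 0.00159), which belong to neither group.

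All 3 classical inhibitor genes rose. Nfkbia, which encodes IkB-alpha, the fast feedback inhibitor of RelA dimers, was at 20.4, 21.4 and 19.6 FPKM in con and at 33.2, 28.8 and 30.2 in DOX, a rise of 0.56 ± 0.08 on the log2 scale (limma adjusted p = 8.22e-05). Nfkbib, which encodes IkB-beta, was at 12.02, 11.5 and 11.4 FPKM in con and at 23.2, 21.1 and 23.0 in DOX, a rise of 1.93-fold (limma adjusted p = 0.000124). Nfkbie, which encodes IkB-epsilon, was at 3.71, 3.89 and 3.68 FPKM in con and at 10.0, 9.48 and 10.7 in DOX, a rise of 2.68-fold (limma adjusted p = 1.81e-07). The least abundant of these inhibitors thus had the largest fold change and the most abundant the smallest.

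Of the remaining feedback genes, Tnfaip3 responded most. It encodes A20, a ubiquitin-editing enzyme that shuts down signalling upstream of IKK. Tnfaip3 was at 2.23, 1.46 and 1.63 FPKM in con and at 7.13, 7.59 and 7.36 in DOX. The DOX libraries were tightly grouped, and the rise was 4.15-fold (log2 difference 1.60 ± 0.14 (SE), limma adjusted p = 1.36e-06). Nfkbiz, which encodes the nuclear IkB protein IkB-zeta, a cofactor for secondary response genes, was at 2.37, 2.10 and 2.11 FPKM in con and at 4.56, 4.10 and 3.76 in DOX. It rose by 0.69 ± 0.10 (limma adjusted p = 7.05e-05), from a low level. Bcl3, the gene of the other nuclear IkB protein in the set, a partner of p50 and p52 dimers, was at 0.0715, 0.158 and 0.107 FPKM in con and at 0.110, 0.166 and 0.0521 in DOX. Bcl3 was at 0.0992, 0.137 and 0.0611 FPKM in DSI+DOX, at 0.097, 0.0532 and 0.115 in AXT+DOX, and was listed at 0 in all 3 DMT+DOX libraries. The 4 groups with values above 0 overlapped. Bcl3 was outside the main test. With no filter on low values, limma called it lower in DMT+DOX than in DOX (adjusted p = 0.0375) and than in con (adjusted p = 0.018) and in no other comparison, at levels where a value listed at 0 can be a failed estimate.

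**Figure D1:**
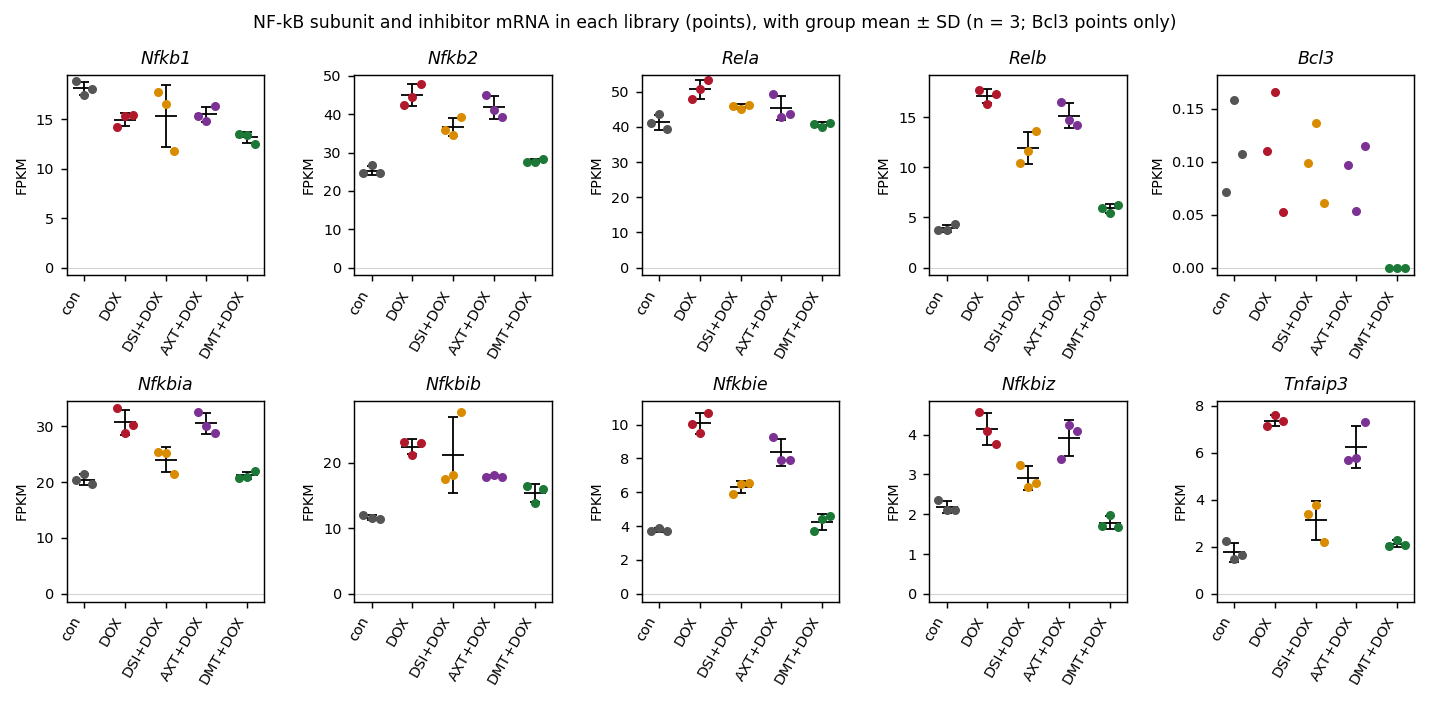
FPKM of each gene (y axis, linear) in the 3 libraries of each group (x axis; points), with the group mean and SD (bars; not drawn for Bcl3). DOX and AXT+DOX points sit highest for Relb, Nfkb2, Nfkbie and Tnfaip3. For these genes DMT+DOX points lie closer to con than to DOX, with Relb and Nfkb2 above every con point. The third DSI+DOX point stands apart for Nfkb1 (11.8 FPKM) and Nfkbib (27.8 FPKM).

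Diosmetin was followed by the broadest difference from doxorubicin alone. Of the 9 genes tested, 8 were lower in DMT+DOX than in DOX and 0 higher, against a background of 7.53% of all entries called lower. The median log2 difference was -0.67, against -0.04 over all entries, and the groups did not overlap for any of the 9 genes, nor for 38.6% of all tested entries. DMT+DOX and DOX against con share the DOX libraries, so the 2 sets of differences are not independent.

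Relb was at 5.97, 5.45 and 6.29 FPKM in DMT+DOX, against 16.3 FPKM in the lowest DOX library. Its level was 0.345 of that in DOX (log2 difference -1.39 ± 0.10 (SE), limma adjusted p = 2.18e-06). Tnfaip3 was at 2.02, 2.30 and 2.06 FPKM in DMT+DOX, a level of 0.289 of that in DOX (log2 difference -1.42 ± 0.14, limma adjusted p = 3.87e-05). These were the genes that doxorubicin had raised the most, and they differed most here too. Nfkbie was at 3.73, 4.40 and 4.62 FPKM (log2 difference -1.08 ± 0.09, limma adjusted p = 6.89e-06). Nfkbiz was at 1.71, 1.97 and 1.68 FPKM, below every con library as well as every DOX library (log2 difference from DOX -0.88 ± 0.10, limma adjusted p = 6.18e-05). Nfkb2 was at 27.5, 27.5 and 28.3 FPKM (log2 difference -0.67 ± 0.07, limma adjusted p = 5.35e-05). The precursor gene Nfkb2 thus lay just above its con range and far below its DOX range.

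The inhibitor gene Nfkbia was at 20.8, 20.9 and 22.0 FPKM in DMT+DOX, a level of 0.691 of that in DOX (limma adjusted p = 0.00108). Nfkbib was at 16.4, 13.8 and 16.0 FPKM, between its con and DOX levels, with a log2 difference from DOX of -0.52 ± 0.13 (limma adjusted p = 0.023). Rela was at 40.9, 39.9 and 41.2 FPKM, inside the con range in all 3 libraries (log2 difference from DOX -0.31 ± 0.07, limma adjusted p = 0.00795). Nfkb1 was at 13.5, 13.4 and 12.5 FPKM, the lowest group level of this gene, and its difference from DOX did not pass (-0.17 ± 0.11, limma adjusted p = 0.419). After median scaling Rela and Nfkbib missed the threshold (limma adjusted p = 0.119 and 0.154). Nfkbib also missed it without DOX replicate 1 or 3 (0.0783 and 0.0759) and without DMT+DOX replicate 2 or 3 (adjusted p = 0.108 and 0.0528). Nfkb1 passed with array weights and without DSI+DOX replicate 3 (limma adjusted p = 0.0128 and 0.042).

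**Figure D2:**
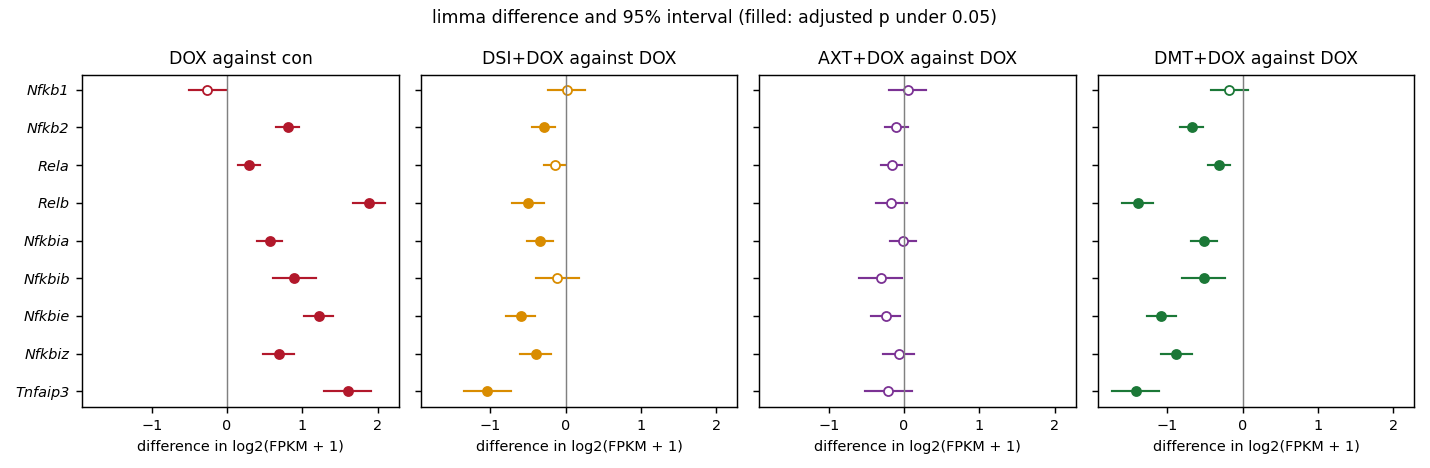
Difference in log2(FPKM + 1) with its 95% interval (x axis) for the 9 tested genes (y axis) in the 4 main comparisons, with filled points at a limma adjusted p under 0.05. The 8 filled points of DOX against con lie to the right of 0, the 6 of DSI+DOX and the 8 of DMT+DOX against DOX lie to the left, and AXT+DOX has none.

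Danshen injection was followed by smaller differences. Of the 9 genes, 6 were lower in DSI+DOX than in DOX and 0 higher, against a background of 6.41% of all entries called lower. The median was -0.34, against -0.11 over all entries. Tnfaip3 was at 3.39, 3.79 and 2.21 FPKM, a level of 0.425 of that in DOX (log2 difference -1.04 ± 0.14 (SE), limma adjusted p = 0.000855). Nfkbie was at 5.89, 6.48 and 6.57 FPKM (log2 difference -0.60 ± 0.09, limma adjusted p = 0.00142). Both genes had all 3 libraries between their con and DOX ranges, apart from the lowest Tnfaip3 library, which lay just inside the con range.

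Relb was at 10.4, 11.6 and 13.6 FPKM in DSI+DOX (log2 difference from DOX -0.50 ± 0.10, limma adjusted p = 0.00792). Nfkbiz was at 3.25, 2.70 and 2.78 FPKM (log2 difference -0.39 ± 0.10, limma adjusted p = 0.0246). These genes kept a level between con and DOX in all 3 libraries. Nfkbia was at 25.5, 25.2 and 21.4 FPKM (log2 difference -0.34 ± 0.08, limma adjusted p = 0.0195). Nfkb2 was at 35.9, 34.6 and 39.2 FPKM (log2 difference -0.29 ± 0.07, limma adjusted p = 0.0258). The differences of Nfkbia and Nfkb2 were the smallest of the 6.

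The other 3 genes did not pass. Rela was at 46.0, 45.1 and 46.2 FPKM in DSI+DOX, all below the DOX libraries (-0.14 ± 0.07, limma adjusted p = 0.173). Nfkb1 was at 17.7, 16.5 and 11.8 FPKM and Nfkbib at 17.5, 18.2 and 27.8. In both genes replicate 3 lay outside the range of all DOX libraries, on the opposite side from replicates 1 and 2. Without replicate 3, Nfkbib differed from DOX by -0.31 ± 0.07 (limma adjusted p = 0.010), against -0.11 ± 0.13 with it (adjusted p = 0.583). Nfkb1 differed by 0.18 ± 0.07 without it (limma adjusted p = 0.0849), against 0.02 ± 0.11 with it. The 6 calls were also made without replicate 3, where 7 genes were called, with Tnfaip3 at -0.87 ± 0.12 and Relb at -0.59 ± 0.09.

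The number of calls for danshen injection depended on the setting. After median scaling, which moved the median of all entries from -0.11 to 0.03, Nfkbie and Tnfaip3 passed and the other 7 genes did not. After quantile normalization 4 passed, and Relb and Nfkbiz did not (limma adjusted p = 0.0701 and 0.22). With DSI+DOX and DOX alone in the fit, limma called 0 of the 9 genes, with 6 at an unadjusted p under 0.05 and Tnfaip3 at adjusted p = 0.0975. Nfkb2 lost its call without DOX replicate 2 or 3 or DSI+DOX replicate 2 (limma adjusted p = 0.080, 0.0948 and 0.0666), Nfkbia without DOX replicate 1 (0.0774), and Nfkbiz without DOX replicate 1 or 2 or DSI+DOX replicate 2 (0.0903, 0.0798 and 0.0625).

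**Figure D3:**
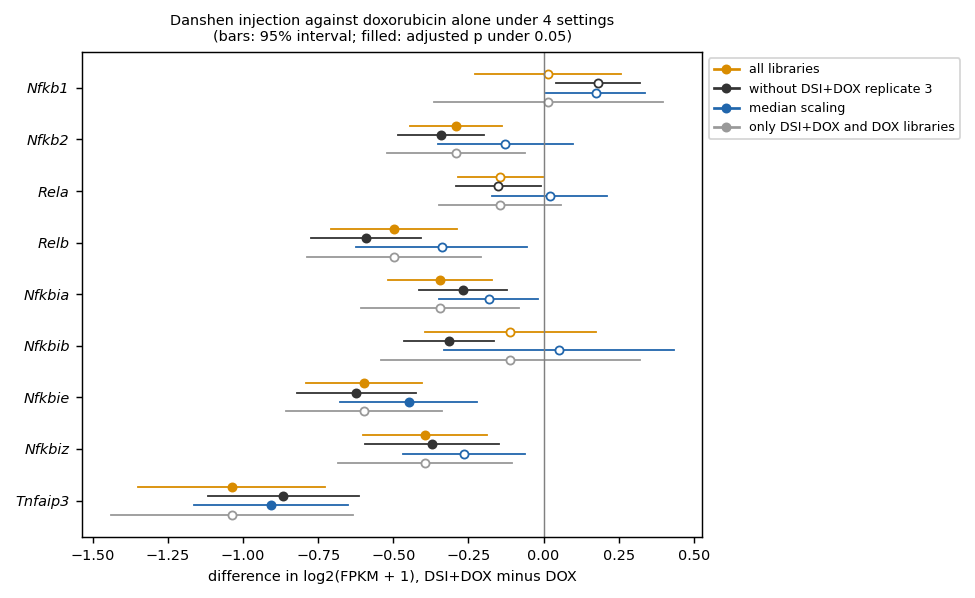
Difference in log2(FPKM + 1) of DSI+DOX minus DOX with its 95% interval (x axis) for each gene (y axis) under 4 settings, with filled points at a limma adjusted p under 0.05. Tnfaip3 and Nfkbie lie left of 0 under each setting shown, while Nfkbib moves from -0.11 to -0.31 when DSI+DOX replicate 3 is left out.

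Astaxanthin was followed by no called difference from doxorubicin alone. limma called 0 of the 9 genes in either direction, and 3 of them (Rela, Nfkbib and Nfkbie) had an unadjusted p under 0.05, against 7.85% of all entries. Over all entries 0.691% were called in either direction, so few genes of any kind passed in this comparison. That share depended on a library of neither group, since the fit pools the spread of all 15 libraries. Without DSI+DOX replicate 3, 372 entries were called, against 78 with it. The median log2 difference of the 9 genes was -0.16, against 0.0031 over all entries. Relb was at 16.6, 14.7 and 14.2 FPKM in AXT+DOX, overlapping its DOX range (-0.17, 95% interval -0.38 to 0.04). Tnfaip3 was at 5.71, 5.78 and 7.30 FPKM, with 1 library inside the DOX range (-0.21, 95% interval -0.52 to 0.10). Nfkb2 was at 45.1, 41.1 and 39.2 FPKM, also overlapping (-0.10, 95% interval -0.26 to 0.05). The intervals of Relb and Tnfaip3 do not reach the differences seen with diosmetin.

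Nfkbia, the IkB-alpha gene, was at 32.6, 30.1 and 28.8 FPKM in AXT+DOX, within its DOX range in all 3 libraries (-0.01, 95% interval -0.18 to 0.16). Nfkbiz was at 3.39, 4.24 and 4.09 FPKM (-0.07, 95% interval -0.27 to 0.14). Nfkb1 was at 15.3, 14.9 and 16.3 FPKM (0.05, 95% interval -0.20 to 0.29). These 3 genes overlapped their DOX levels. The estimates furthest from 0 were those of Nfkbib, at 17.9, 18.1 and 17.8 FPKM (-0.31, 95% interval -0.59 to -0.02, limma adjusted p = 0.574), and Nfkbie, at 9.27, 7.89 and 7.93 FPKM (-0.24, 95% interval -0.44 to -0.05, limma adjusted p = 0.432). For both genes, 2 of the 9, the 3 AXT+DOX libraries lay below the DOX libraries. This share is near the 17.6% of all tested entries without overlap in this comparison. Rela was at 49.2, 42.9 and 43.7 FPKM, with 1 library inside the DOX range (-0.16, limma adjusted p = 0.524). Without DSI+DOX replicate 3 the difference of Nfkbib was called (limma adjusted p = 0.0149).

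Each addition group was also compared with con. In AXT+DOX 7 of 9 genes were higher than in con, against a background of 22.7% called higher. In DSI+DOX 7 of 9 were higher, against 20.5%. In DMT+DOX 2 of 9 genes were called in either direction, against 26.2% of all entries, a share near that background. These comparisons share the con libraries. The genes called in DMT+DOX were Relb, which remained above con (log2 difference 0.49 ± 0.10 (SE), limma adjusted p = 0.00215), and Nfkb1, which was lower than in con (-0.43 ± 0.11, limma adjusted p = 0.0115). Relb was thus the 1 member called higher than con in all 4 groups given doxorubicin. Relb was 3.03-fold above con in DSI+DOX (limma adjusted p = 2.87e-07) and 3.86-fold above con in AXT+DOX (limma adjusted p = 2.39e-08). Nfkbib in DMT+DOX was at 1.32-fold of con and missed the threshold (limma adjusted p = 0.0544), which it passed without any 1 of the DSI+DOX libraries (0.0336, 0.0497 and 0.000254). Nfkb1 was called lower than con in AXT+DOX under 5 of 24 alternatives, among them leaving out DSI+DOX replicate 3 (limma adjusted p = 0.00665). In DSI+DOX the difference of Nfkbia from con was 0.22 ± 0.08 (limma adjusted p = 0.0419) and that of Nfkbiz 0.29 ± 0.10 (limma adjusted p = 0.0273). The Nfkbia call was lost under 12 of 24 alternatives, 10 of which leave out 1 library (any con or DMT+DOX library, DOX replicate 3, DSI+DOX replicate 1 or 2, or AXT+DOX replicate 2, at adjusted p = 0.051 to 0.134). The Nfkbiz call was lost without con replicate 2 or 3 or DSI+DOX replicate 1 (limma adjusted p = 0.0759, 0.0838 and 0.075). It was also lost with no filter (limma adjusted p = 0.0508) and with only DSI+DOX and con in the fit (0.107). In that last fit Tnfaip3 lost its call too (limma adjusted p = 0.0935). Without DSI+DOX replicate 3 limma also called 7 genes higher than con, with Relb at a log2 difference of 1.29 (adjusted p = 4.45e-08), Tnfaip3 at 0.73 (0.000196), Nfkbia at 0.30 (0.0033) and Nfkbiz at 0.31 (0.0258).

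**Figure D4:**
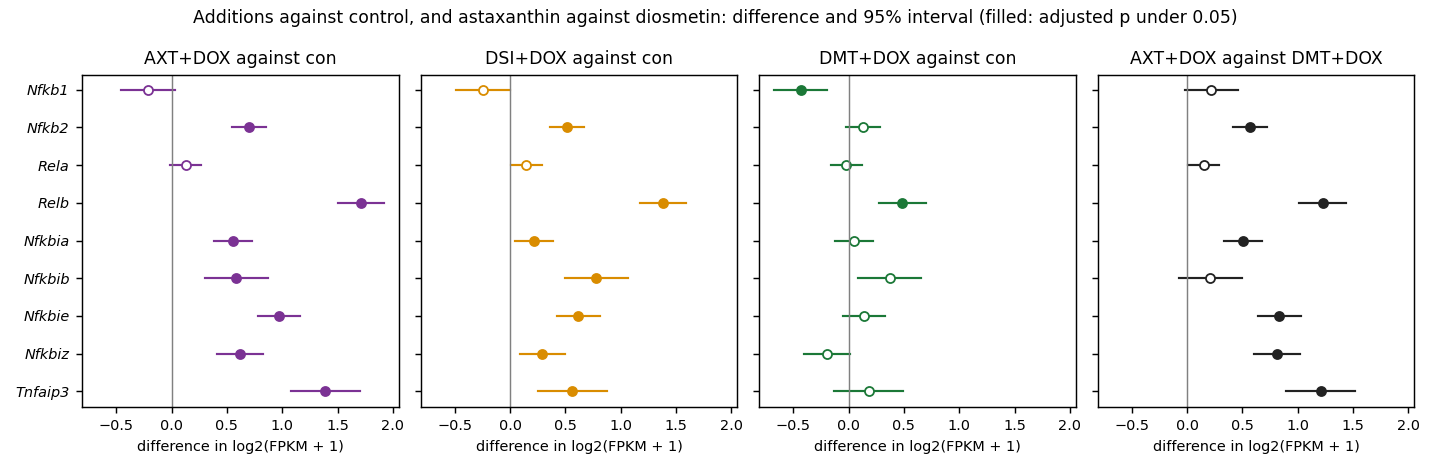
Difference in log2(FPKM + 1) with its 95% interval (x axis) for the 9 tested genes (y axis) for each addition group against con, and for AXT+DOX against DMT+DOX, with filled points at a limma adjusted p under 0.05. AXT+DOX and DSI+DOX have 7 filled points each against con, DMT+DOX has 2, and AXT+DOX against DMT+DOX has 6.

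The additions were also compared with each other, at their unmatched doses. In AXT+DOX 6 of 9 genes were higher than in DMT+DOX, against a background of 2.58% of entries called higher, and the groups did not overlap for any of the 9, nor for 32.5% of all tested entries. The genes were Relb (2.57-fold, limma adjusted p = 1.08e-05), Tnfaip3 (2.94-fold, adjusted p = 0.000287), Nfkbie, Nfkbiz, Nfkb2 and Nfkbia, and these calls were made under all alternatives in which the gene was tested. In DSI+DOX 4 of 9 genes were higher than in DMT+DOX, against 0.345% of entries, with Relb at 2.02-fold (limma adjusted p = 0.000475) and Nfkb2, Nfkbie and Nfkbiz at 1.32-fold, 1.48-fold and 1.63-fold. In DSI+DOX 5 of 9 genes were lower than in AXT+DOX, against 7.99% of entries. They were Tnfaip3, at 0.50 of its AXT+DOX level (limma adjusted p = 0.00566), Nfkbia, Nfkbie, Relb and Nfkbiz. When the fit held only the 2 groups in question, limma called 0 of 9 genes in each of these DSI+DOX comparisons, with 5 at an unadjusted p under 0.05 in each. Against DMT+DOX, leaving out DMT+DOX replicate 1, 2 or 3 left 1, 1 and 2 calls, and the call of Relb was made each time. Against AXT+DOX, leaving out AXT+DOX replicate 1, 2 or 3 left 2, 1 and 1 calls, with Tnfaip3 called each time, and leaving out DSI+DOX replicate 2, DOX replicate 2 or any con or DMT+DOX library left 3. Without DSI+DOX replicate 3, limma called 6 genes higher than in DMT+DOX, with Nfkb1 and Tnfaip3 added (adjusted p = 0.0102 and 0.0228). Against AXT+DOX it called 5 genes lower, with Nfkb2 added (adjusted p = 0.0356) and Nfkbiz lost (0.0735).

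The order of group means was con lowest and DOX highest for Nfkb2, Relb, Nfkbia, Nfkbib, Nfkbie and Tnfaip3. For Nfkbiz and Rela the lowest mean was that of DMT+DOX, and for Nfkb1 con was highest and DMT+DOX lowest. Relb showed the most steps between neighbours in its order. Its means were 17.1 ± 0.716 FPKM (SD, n = 3) in DOX, 15.2 ± 1.24 in AXT+DOX, 11.9 ± 1.60 in DSI+DOX, 5.90 ± 0.423 in DMT+DOX and 3.93 ± 0.333 in con, and every step but that from DOX to AXT+DOX passed (limma adjusted p = 0.0478, 0.000475 and 0.00215). The step from AXT+DOX to DSI+DOX passed under 4 of 24 alternatives for Relb. The step from AXT+DOX to DSI+DOX was called for Relb, Nfkbia, Nfkbie, Nfkbiz and Tnfaip3. For Tnfaip3 that step went from 6.26 ± 0.896 to 3.13 ± 0.823 FPKM. Its steps from DSI+DOX to DMT+DOX and from DMT+DOX to con did not pass. DSI+DOX and con, which are not neighbours in this order, did differ for Tnfaip3 (log2 difference 0.56, limma adjusted p = 0.00822). For Nfkb1, Rela and Nfkbib no step between neighbouring groups passed.

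Ratios within a library describe how the balance of transcripts changed. They are descriptions with no test. The ratio of Nfkb2 to Nfkb1, the precursor genes, was 1.31, 1.53 and 1.36 in con and 2.998, 2.90 and 3.12 in DOX. It was 2.04, 2.05 and 2.26 in DMT+DOX, 2.95, 2.77 and 2.40 in AXT+DOX, and 2.02, 2.10 and 3.32 in DSI+DOX. All 12 doxorubicin-treated libraries lay above the con libraries, and DSI+DOX replicate 3 had the highest value of all. Relb per Rela went from 0.0955 ± 0.0127 (SD, n = 3) in con to 0.338 ± 0.0265 in DOX. It was 0.335 ± 0.00922 in AXT+DOX, 0.260 ± 0.0339 in DSI+DOX and 0.145 ± 0.00797 in DMT+DOX. The con and DMT+DOX libraries did not overlap in this ratio either.

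The classical inhibitors rose more than the gene of the subunit they bind. Nfkbia, Nfkbib and Nfkbie together gave 35.9 ± 1.10 FPKM in con, 63.2 ± 3.55 in DOX, 56.8 ± 2.67 in AXT+DOX, 51.5 ± 3.76 in DSI+DOX and 40.9 ± 1.72 in DMT+DOX. Their sum per Rela was 0.869 ± 0.0202 in con, 1.25 ± 0.116 in DOX and 1.00 ± 0.0263 in DMT+DOX, with no overlap between these 3 groups. AXT+DOX stood at 1.26 ± 0.0465 and DSI+DOX at 1.12 ± 0.0754, both overlapping DOX. Nfkbia made up 56.4%, 58.1% and 56.5% of that sum in con and 50.0%, 48.5% and 47.3% in DOX. Its share was lower in every doxorubicin-treated library than in every con library, and lowest in DSI+DOX replicate 3 at 38.4%.

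**Figure D5:**
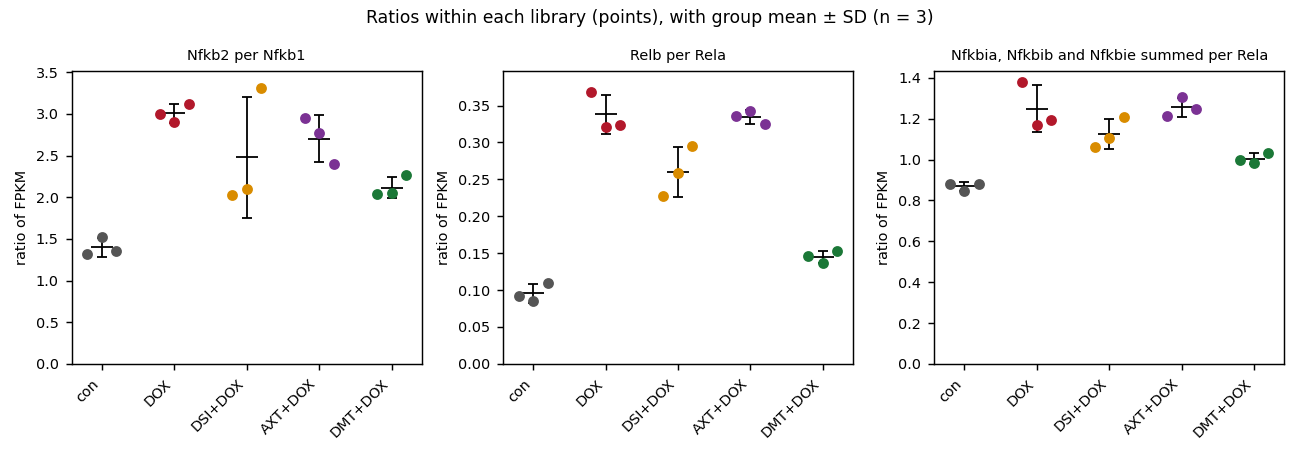
Ratios of FPKM within each library (y axes, from 0; points) by group (x axis), with group mean and SD (bars). Relb per Rela is 0.338 in DOX, 0.335 in AXT+DOX, 0.260 in DSI+DOX, 0.145 in DMT+DOX and 0.0955 in con, and Nfkb2 per Nfkb1 in DSI+DOX replicate 3 (3.32) stands above the other libraries.

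Other genes of the pathway were counted by role. In DOX against con, 24.8% of all tested entries were called higher and 14.1% lower, and the median over all of them was 0.05. Of 8 further Rel and IkB family genes 7 were tested, and 2 rose in DOX against con, a share near the background, with a list median of 0.12. Nfkbil1, an IkB-like gene of uncertain role in NF-kB control, rose from 4.06 ± 0.465 to 8.34 ± 0.384 FPKM (SD, n = 3; log2 difference 0.89 ± 0.15 (SE), limma adjusted p = 0.000404). Rel, the gene of the remaining subunit c-Rel, was at 1.94 ± 0.154 FPKM in con and 2.39 ± 0.393 in DOX and was not called. With all libraries, none of these 7 genes was called with any addition against DOX, and 1 was lower with danshen injection without DSI+DOX replicate 3.

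Of 10 IKK complex and related kinase genes, 3 rose in DOX (Ikbke, Ikbkb and Map3k14) and 0 fell, also a share near the background, with a median of 0.21. Ikbke, the gene of a non-canonical IKK kinase, rose from 4.86 ± 0.272 to 6.70 ± 0.224 FPKM (0.39 ± 0.08, limma adjusted p = 0.00206). In DMT+DOX Ikbke was lower than in DOX, at 4.97 ± 0.323 FPKM (-0.37 ± 0.08, limma adjusted p = 0.0124), a call lost without DOX replicate 3 (0.0502) or DMT+DOX replicate 3 (adjusted p = 0.0593). Ikbkb, the gene of the main IkB kinase, was lower in DSI+DOX than in DOX, at 7.38 ± 0.783 against 9.74 ± 0.720 FPKM (-0.36 ± 0.08, limma adjusted p = 0.017). It missed the threshold with median scaling (adjusted p = 0.0781), with quantile normalization (0.0769), with only those groups in the fit (0.383) and without DOX replicate 2 (0.088). Without DSI+DOX replicate 3 the difference of Ikbkb was -0.28 (limma adjusted p = 0.0163).

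Of 11 receptor genes 6 were tested, and 1 rose in DOX, near the background of 24.8%. It was Tnfrsf12a, the gene of the TWEAK receptor Fn14, at 84.6 ± 8.34 FPKM in con and 123 ± 2.84 in DOX (0.54 ± 0.11, limma adjusted p = 0.00144). Of 8 ligand genes found, 1 passed the filter. It was Tnfsf12, the TWEAK gene, which was not called. Tnf, the tumour necrosis factor gene, averaged 0.0695 FPKM in DOX, so it lay under the filter.

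Adaptor and ubiquitin ligase genes rose in 6 of 16 cases in DOX, against 24.8% of all entries, with a median of 0.10. Traf2, the adaptor gene of tumour necrosis factor receptors, rose from 8.45 ± 1.23 to 18.9 ± 0.702 FPKM (1.08 ± 0.10, limma adjusted p = 1.29e-06). It was the 1 gene of this list called lower with diosmetin, near the 7.53% of all entries, at 10.9 ± 0.714 FPKM (-0.75 ± 0.10 from DOX, limma adjusted p = 0.00027). With danshen injection 0 genes of this list were called against DOX. Without DSI+DOX replicate 3, 3 of the 16 were lower, where 1330 of all 11288 entries were called in either direction. Of 9 deubiquitinase and attenuator genes 2 rose in DOX, near the background. With diosmetin 2 of the 9 were called lower than in DOX, against 7.53% of all entries. With danshen injection 1 was lower than in DOX, against 6.41% of all entries, and 2 were lower without DSI+DOX replicate 3. Zc3h12a, the gene of the RNase Regnase-1 that degrades cytokine transcripts, rose from 7.56 ± 0.575 to 15.04 ± 0.881 FPKM (0.91 ± 0.07, limma adjusted p = 3.58e-07). It was at 6.13 ± 0.0513 FPKM in DMT+DOX (-1.17 ± 0.07 from DOX, limma adjusted p = 5.96e-07) and at 11.4 ± 0.553 in DSI+DOX (-0.38 ± 0.07, limma adjusted p = 0.00637). The DSI+DOX difference missed the threshold with median scaling (adjusted p = 0.115), quantile normalization (0.0563) and with only those groups in the fit (0.281). Without DSI+DOX replicate 3 it was -0.36 (limma adjusted p = 0.00491).

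Of 8 tested genes of the route from DNA damage to NF-kB, 1 rose in DOX and 2 fell, against 24.8% and 14.1% of all entries, with a median of -0.22. Atm, the gene of the DNA break kinase, fell from 4.29 ± 0.393 to 1.91 ± 0.134 FPKM (-0.86 ± 0.18, limma adjusted p = 0.00213). Pias4, the gene of a SUMO ligase acting on the IKK subunit NEMO, rose by 0.30 ± 0.10 (limma adjusted p = 0.0249), which missed the threshold with median scaling (adjusted p = 0.174), with quantile normalization (0.126), and without con replicate 3 (0.121), DOX replicate 1 (0.0797) or DOX replicate 2 (0.0765). No gene of this list was called with any addition against DOX.

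Known NF-kB target genes rose in 10 of 13 tested cases in DOX, with a median of 1.09, and 0 fell, against 24.8% of all entries called higher and a median of 0.05 over them. Il6, the interleukin 6 gene, rose from 2.64 ± 0.510 to 17.1 ± 3.44 FPKM (2.30 ± 0.15, limma adjusted p = 5.08e-08). With diosmetin 7 of 13 were lower than in DOX, with a median of -0.28, against 7.53% of all entries and a median of -0.04. Ccl2, a monocyte chemokine gene, was at 7.55 ± 0.812 FPKM in DOX and at 1.05 ± 0.236 in DMT+DOX (-2.06 ± 0.14 from DOX, limma adjusted p = 1.52e-06). Its con level was 1.60 ± 0.259, and its difference between DMT+DOX and con was not called. Against con, 6 of the 13 genes were called higher in DMT+DOX and 0 lower, against 15.5% and 10.7% of all entries. Il6 was among these 6, at 9.51 ± 0.480 FPKM in DMT+DOX. With danshen injection 5 of 13 were lower than in DOX, with a median of -0.41, against 6.41% of all entries and a median of -0.11. Lif, the leukaemia inhibitory factor gene, was at 13.7 ± 1.60 FPKM in DOX and 8.05 ± 2.38 in DSI+DOX (-0.73 ± 0.16, limma adjusted p = 0.0147), a call lost with only those groups in the fit (adjusted p = 0.321) and without DOX replicate 2 (0.0621) or 3 (0.0589). Without DSI+DOX replicate 3, 5 of 13 were again lower, with a median of -0.25, and Lif differed by -0.50 (limma adjusted p = 0.00512). With astaxanthin 0 of 13 were called, as was true of each list above.

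For each member called in DOX against con, the tested gene outside the set with the most similar profile was found by Pearson r of log2(FPKM + 1) over the 15 libraries. These values describe libraries that share groups and carry no p. Junb, an AP-1 subunit gene, was most like both Relb (r = 0.978) and Nfkb2 (r = 0.978). Its means were 40.9 FPKM in con, 72.6 in DOX, 69.1 in AXT+DOX, 58.3 in DSI+DOX and 47.8 in DMT+DOX, the order that Relb and Nfkb2 also showed. Efnb1, an ephrin gene, was most like Tnfaip3 (r = 0.976), and Rad9a, a DNA damage checkpoint clamp gene, was most like Nfkbie (r = 0.977). Zc3h12a, described above, was most like Nfkbiz (r = 0.954), and Cxcl16, a chemokine gene, most like Nfkbia (r = 0.954). Il4r, the interleukin 4 receptor gene, was most like Rela (r = 0.935). Crcp, the gene of an RNA polymerase III subunit, was most like Nfkbib (r = 0.985), and its SD in DSI+DOX was 2.52 FPKM around a mean of 10.7, against an SD of at most 0.737 in the other groups.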

How the data were processed

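Per the labels' protocols, total RNA was extracted with TRIzol and libraries were made with a NEBNext Ultra kit. The submitters' processing notes list Trimmomatic, HISAT2, featureCounts and build Rnor_6.0, with no versions. The deposited table has 1 FPKM column per library. How the authors went from counts to FPKM is not given in the sources used here. No steps of whole reads were found (between con replicates 1 and 2 the most common ratio, within 0.2%, held 0.88% of 570 genes under 0.1 FPKM). Depth is thus unknown and no counting interval was computed. Strand use in counting is not stated, so overlapping and antisense genes cannot be told apart. Whether replicates were separate cultures is not stated either, and p-values measure the spread between these libraries, which may be technical.

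Of 19344 entries, 16 exact duplicates were dropped. Entries with FPKM of at least 1 in at least 3 libraries were tested. limma 3.58.1 (R 4.3.3) fitted group means to log2(FPKM + 1) over the 15 libraries together, with empirical Bayes, a trend and 10 residual degrees of freedom, and p-values were adjusted over all 11288 entries. Changes of low genes are understated on this scale. The fit was run on simulated data with independent normal noise and known changes in DOX. Those data held no outlying library and no deviations shared between libraries, so the run does not cover these features. The 10 members and the lists were chosen with earlier results of these data known, and some lists share genes. Each member was named in every comparison, and from each further list the called genes with the largest rise and fall in each main comparison. Rel, Tnf, Tnfsf12 and Map3k14 were named after their values were seen. Results were recomputed with a pseudocount of 0.1, with filters of 5 FPKM and none, after median scaling or quantile normalization, with just the compared groups in the fit, with no trend, with the replicate number as a block, with array weights, and without each library. matplotlib 3.10.9 (Python 3.11.15) drew the figures.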

Additional observations from a re-analysis of the deposited data

How the results depend on the processing

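Few recomputed estimates changed sign, but many settings could not change them. The 24 alternatives gave 2509 recomputed estimates of 105 gene and comparison pairs. Of these estimates 20 changed sign, 13 of them without 1 library, and no estimate past the threshold did. Settings such as no trend, another filter or leaving out a library of neither group return the same estimate. The count of sign changes thus does not measure how stable the directions are. Genes called under every alternative in which they were tested numbered 7 of 8 for DOX against con, 6 of 8 for DMT+DOX against DOX, 7 of 7 for AXT+DOX against con, 2 of 2 for DMT+DOX against con, 6 of 6 for AXT+DOX against DMT+DOX, 4 of 7 for DSI+DOX against con, and 0 of 6, 0 of 5 and 0 of 4 for DSI+DOX against DOX, AXT+DOX and DMT+DOX. The filter at 5 FPKM removed Nfkbiz and gave no value for it. The cause of the changes below was not tested.

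Counts of called genes moved as follows. For DSI+DOX against DOX (6), median scaling gave 2 and only the groups compared 0. For AXT+DOX against DOX (0), array weights gave 3 and leaving out DSI+DOX replicate 3 gave 1. For DSI+DOX against con (7), only the groups compared gave 4, and for DMT+DOX against con (2), array weights gave 5. For DSI+DOX against AXT+DOX (5), a pseudocount of 0.1 and no filter gave 3 each, median scaling 1, quantile normalization 2 and only the groups compared 0. For DSI+DOX against DMT+DOX (4), only the groups compared gave 0 and array weights 9. Leaving out 1 library at a time gave 8 to 9 for DOX against con, and against DOX 4 to 7 for DSI+DOX, 0 to 1 for AXT+DOX and 7 to 9 for DMT+DOX. Against con it gave 5 to 7, 7 to 8 and 2 to 3 in the same order. It gave 1 to 5 for DSI+DOX against AXT+DOX, 1 to 6 for DSI+DOX against DMT+DOX and 6 to 8 for AXT+DOX against DMT+DOX. The background shares moved too. Without DSI+DOX replicate 3, the entries called rose from 4391 to 6434 in DOX against con. They rose from 1181 to 2821 in DMT+DOX against DOX.

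The replicate number as a block gave 5 calls for DSI+DOX against DOX, 2 for DSI+DOX against AXT+DOX and 1 for DSI+DOX against DMT+DOX, and the other counts did not move. Deviations of same-numbered libraries correlated from -0.54 to 0.52 over 30 pairs (median -0.018, 8 over 0.1). Those of differently numbered libraries ran from -0.49 to 0.56 over 60 pairs (median 0.045, 25 over 0.1). No stronger likeness of same-numbered libraries was seen, but the check cannot exclude a batch shared by some of them.

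Estimates that changed sign were not past the threshold with all libraries. Nfkb1 in DSI+DOX against AXT+DOX was 0.13 after median scaling, 0.10 after quantile normalization and 0.12 with array weights, and ran from -0.14 to 0.14 without 1 library. After median scaling Rela was 0.0205 and Nfkbib 0.0516 in DSI+DOX against DOX. With array weights Nfkbia was 0.0244 and Nfkbiz 0.0018 in AXT+DOX against DOX. Without 1 library the DSI+DOX against DOX estimates ran from -0.0925 to 0.18 for Nfkb1 and from -0.31 to 0.0058 for Nfkbib. The AXT+DOX against DOX estimates ran from -0.0575 to 0.0444 for Nfkbia and from -0.12 to 0.0101 for Nfkbiz. Rela ran from -0.0553 to 0.0168 in DMT+DOX against con and from -0.019 to 0.0776 in DSI+DOX against AXT+DOX, where Nfkbib ran from -0.0082 to 0.31.

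Read depth is not known from FPKM, and no counting error is given for low genes such as Nfkbiz, Tnfaip3 and Bcl3.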
